A study of Drosophila melanogaster with 6 samples.

Results

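Cuticle protein mRNAs were all transcripts whose gene name on the array began with Cpr and a digit, Lcp, Ccp84, Edg and a digit, Pcp or Acp65. The name alone chose them, and it found 133 probes for 97 genes, of 32162 probes and 13256 named genes in the series. RefSeq lists 99 such names for Drosophila melanogaster (assembly Release 6 plus ISO1 MT). The unmatched names were Cpr65Ax2 and the pseudogene Lcp65APsi.

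Cuticle proteins are secreted by the epidermis and by the chitin-lined trachea and gut ends, and pack between chitin fibres to give each cuticle its stiffness. Most of these genes encode proteins of the CPR family, which share a chitin-binding region named after Rebers and Riddiford. The prefixes record where a protein was first met: Lcp in larval cuticle, Pcp in pupal cuticle, Acp in adult cuticle, and Edg among ecdysone-dependent genes of imaginal discs. Many lie in tandem runs, and the first larval cuticle is built by the embryonic epidermis late in embryogenesis, under ecdysone and its nuclear receptors.

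The samples were whole embryos at stage 12 to 15, labelled wildtype, of the strain UAS-T.g.UPRT (no GAL4). That transgene, carried by the embryos of all groups, encodes a uracil phosphoribosyltransferase of Toxoplasma that needs a GAL4 driver to be expressed, and the methods say that either of a pair of insertion lines was used. Embryos were reared at 18 or 25 °C, permeabilized and given 1 mM 4-thiouridine in D22 insect medium with 5% FBS for 1 hour at 30 °C (the pulse), which tags RNA made in that hour in every tissue. They were then collected, or moved for 1 or 3 hours to 10 mM uridine (the chase). In the UO series the chase held uridine only, and in the U + actD series it also held actinomycin D, which binds DNA and blocks transcription. Its dose was not given in the sources used here. Several collections were pooled for each time point, tagged RNA (TU-RNA) was purified with spike-in transcripts added, and each of the 6 groups was measured on 1 one-colour array, so no change within a series has a replicate.

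Signals were read above a background threshold, the 95th percentile of 153 negative control spots. It was 50 to 54 on the UO arrays and 108 to 354 on the U + actD arrays, where 48.2% to 57.1% and 61.8% to 78.7% of probes exceeded it. The threshold was highest, at 354, on the U + actD pulse array. UO values came from the scanner files (UO scanner) and from the authors' normalized table (UO table), which are different numbers: they were equal at 0.0313% to 0.126% of probes. Spot by spot, U + actD scanner and table values are the same numbers on a different scale, the table standing 2.32 times (1-hour chase) and 1.78 times (3-hour chase) above the spike-in scale. A table mean covers only spots with a value, so the value of a probe could still differ. The Cpr65Ea pulse was 442.7 by scanner and 614 by table, where both scales are the same. A table value was used where it was above 0 at every time point. The whole-embryo label was checked against marker lists, and all 7 epidermis, 7 nervous system, 8 muscle, 6 trachea and 5 gut markers and 6 of 7 fat body and hemocyte markers were above the threshold on the 3 U + actD arrays. So were 69.9% of all named genes. On all 6 arrays 5 of 7 nervous system, 3 of 5 gut and 5 of 7 fat body and hemocyte markers were above it, all markers of the other lists, and 55.7% of all named genes.

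Of the 97 cuticle genes, 24 (28 probes) were above the threshold on all 3 UO arrays, 42 (53 probes) on all 3 U + actD arrays and 20 (24 probes) on all 6. This was 24.7% and 43.3% of the members, against 57.0% and 69.9% of all named genes. The members were thus detected less often than the average gene, in a count with no test. At 14 probes, of 14 genes, the signal was above the threshold at both U + actD chases and not at the pulse. A set of 15 probes, of 14 genes, exceeded it on no array. Some of these genes were detected through another probe, among them Cpr57A in the first count and Cpr97Eb in the second. The same counts over all genes were not made. Margins were small: 7 of the 28 UO probes were under 2 times the threshold at the pulse and 14 at the 3-hour chase, as were 21 and 17 of the 53 U + actD probes. A probe that is dim at the pulse can pass at the 3-hour chase only with a high share of its pulse. For 9 of the 28 UO member probes and 28 of the 53 U + actD member probes the lowest share that could pass was above that of the median probe (12.2% and 10.3%), against 13.0% and 10.7% of all probes. Medians over the members that passed are therefore raised by the filter. In these bulk embryos, fewer cells that make a transcript and less RNA per cell cannot be told apart.

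The 52 dim genes, for which no decay value was taken from scanner signals, were Acp65Aa, Ccp84Aa, Ccp84Ab, Ccp84Ac, Ccp84Af, Ccp84Ag, Cpr100A, Cpr12A, Cpr23B, Cpr30B, Cpr35B, Cpr47Ea, Cpr47Eb, Cpr47Ed, Cpr47Ee, Cpr49Aa, Cpr49Ad, Cpr49Ae, Cpr49Af, Cpr49Ah, Cpr50Ca, Cpr5C, Cpr62Ba, Cpr62Bb, Cpr64Aa, Cpr64Ac, Cpr65Au, Cpr65Av, Cpr65Aw, Cpr65Az, Cpr65Ec, Cpr67Fa2, Cpr72Ea, Cpr72Eb, Cpr72Ec, Cpr73D, Cpr76Bb, Cpr76Bd, Cpr78Ca, Cpr92A, Cpr92F, Edg78E, Lcp1, Lcp1Psi, Lcp2, Lcp3, Lcp4, Lcp65Aa, Lcp65Ad, Lcp65Ae, Lcp9 and Pcp. They include all members at 72E and all of the Lcp1 to Lcp4 genes of the late larval cuticle. The runs with at least 3 detected members in a series were 65A on chromosome arm 3L, with 6 of 17 in UO and 9 of 17 in U + actD, 49A on 2R, with 2 and 3 of 8, and 47E on 2R, with 3 and 2 of 7. Of the 8 members at 84A on 3R, 2 were detected in each series.

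The 65A run held the clearest pattern among the members. In RefSeq its span holds 21 genes, 17 of them members on the array, and from one end it runs Lcp65Ag3, Cpr65Au, Lcp65Ag2, Lcp65Ag1, Lcp65Af, Lcp65Ae, Cpr65Av, Cpr65Aw, Lcp65Ad, Lcp65Ac, Lcp65Ab2, Cpr65Ax1, then Lcp65Ab1, Lcp65Aa and Acp65Aa, with Cpr65Ay and Cpr65Az beyond genes of other kinds. These genes encode small larval cuticle proteins and their CPR relatives. Several are near-identical copies, among them Lcp65Ag1, Lcp65Ag2 and Lcp65Ag3, Lcp65Ab1 and Lcp65Ab2, and Cpr65Ax1 and Cpr65Ax2, so a probe may read more than 1 of them and their values are not independent.

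Signals below are net scanner signals scaled on the spike-ins within a series, so each pulse value stands as measured. Cpr65Ax1 read 7091 at the UO pulse, 1058 at the 1-hour chase and 112 at the 3-hour chase, and 13733, 23966 and 19244 in U + actD. It thus stood at 14.9% and 1.58% of its pulse in UO, and at 175% and 140% in U + actD. The UO chase arrays were far below their pulse and the U + actD chase arrays above theirs. Lcp65Ag1, a larval cuticle protein, read 806, 206 and 41.7 in UO and 1896, 3454 and 2614 in U + actD. Lcp65Ag2 had a pair of probes above the threshold, which read 1858, 629 and 70.5 and 1609, 553 and 77.5 in UO, against 5038, 9253 and 6428 and 3059, 6672 and 4487 in U + actD. Those of Lcp65Ag3 read 672, 121 and 22.1 and 2083, 337 and 34.5 in UO, and 3034, 6130 and 4398 and 2572, 4922 and 3182 in U + actD. All probes of these 4 genes that passed the threshold were lower at each UO chase than at the pulse and higher at each U + actD chase than at the pulse. Another Lcp65Ag2 probe was dim, with net signals of 46, 3 and 47 in UO and 108, 231 and 53 in U + actD, and did not follow this order. Lcp65Af followed the same order from a dimmer start, with 191, 96.6 and 18.1 in UO and 391, 516 and 569 in U + actD, and its last UO value lay close to the threshold. Its other probe, above the threshold at the U + actD pulse and 1-hour chase alone, had net signals of 857, 282 and 46 there and so went the other way.

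Replicate spots on 1 array give the technical spread. The Lcp65Ag1 probe had 2 spots an array, whose net signals before scaling were 1896 ± 245 at the U + actD pulse, 4178 ± 803 at the 1-hour chase and 2639 ± 165 at the 3-hour chase (SD, n = 2 spots). In UO they were 806 ± 6.36, 504 ± 18.4 and 128 ± 0. The single spots did not overlap between the pulse and either chase in either series. This covers spots of 1 hybridisation and says nothing of embryo collections.

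**Figure D1:**
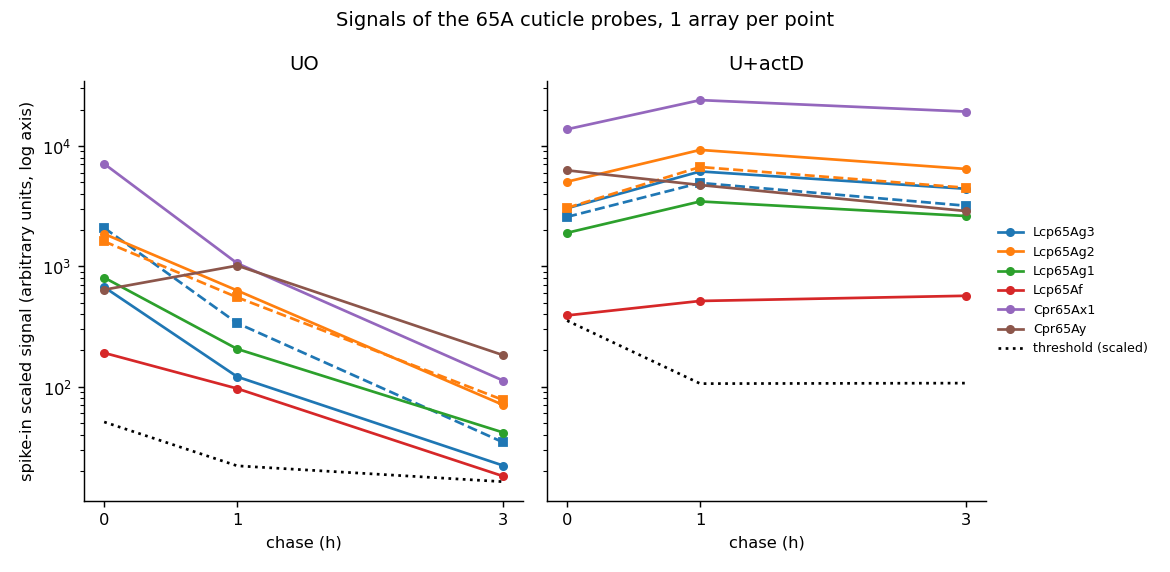
Spike-in scaled signals (log axis) of the 65A probes that were above the threshold on all 6 arrays, against hours of chase, with 1 array per point, dashed lines for a second probe of a gene and a dotted line for the scaled background threshold. All probes but that of Cpr65Ay, which reads 639, 1014 and 183, are lower at each UO step, and all but that of Cpr65Ay lie above their pulse at both U + actD chases.

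Other 65A genes were measured in U + actD alone. Lcp65Ac read 1296, 1937 and 1293 there, which is 149% and 99.7% of its pulse. Its UO net signals were 331, 128 and 37.5, the last under the threshold of 50. In the UO table it stood at 181% and 18.8% of its pulse. Lcp65Ab1 read 494, 656 and 636, or 133% and 129%, while Lcp65Ab2 read 441, 321 and 171, or 72.7% and 38.7%. The run was not uniform, and a probe of Cpr65Ay read 639, 1014 and 183 in UO and 6262, 4727 and 2874 in U + actD. That probe carried the name Cpr65Ay only in the UO files, and all Cpr65Ay values here rest on it. The Cpr65Ay probe named so in both sources was dim. Its net signals were 51.5, 21 and 20 in UO and 205, 221 and 90 in U + actD. Lcp65Ad, dim by the rule, had U + actD net signals of 1610, 374 and 60.

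Over the 9 65A genes measured in U + actD the median stood at 149% of the pulse at the 1-hour chase and 134% at the 3-hour chase, with 7 and 6 of 9 above it. For all 9262 genes measured in that series these medians were 28.05% and 10.8%, and 2.02% and 1.05% of genes were above the pulse. The 33 other cuticle genes had medians of 53.0% and 27.9%, with 7 and 0 of 33 above the pulse. Over probes chosen on the pulse array alone, a choice made after seeing the data, with values under the threshold set to it, the 3-hour medians in U + actD were 128% for 9 probes of 65A, 14.7% for 20 probes of the other members and 9.17% for all probes. In UO they were 4.82% (9 probes), 11.3% (14 probes) and 10.98%. The distance between the other members and all probes was thus smaller without the filter on the chase arrays, and that of 65A remained in both series. In the UO scanner signals the 6 genes of 65A had medians of 29.5% and 4.70%, against 76.0% and 21.7% for the 18 other cuticle genes and 65.5% and 12.2% for all 7553 genes. There, 16.2% of all genes were above the pulse at the 1-hour chase and 0.106% at the 3-hour chase. At the 3-hour chase 5 of the 6 genes of 65A lay below the median gene in UO, with Cpr65Ay above it, and 9 of 9 lay above it in U + actD. Among the 7378 genes on all 6 arrays, 0.949% stood above the pulse in U + actD and below it in UO at the 3-hour chase, and 5 of the 20 members did: Cpr65Ax1, Lcp65Af, Lcp65Ag1, Lcp65Ag2 and Lcp65Ag3. At the 1-hour chase 6 of 20 did, against 1.26%. With 1 array a group these shares carry no test.

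The UO table gave another 1-hour value for the same genes. Cpr65Ax1 read 18718, 27147 and 2957 there, or 145% and 15.8% of its pulse, Lcp65Ag1 147% and 13.5%, Lcp65Ag2 124% and 6.43% and Lcp65Ag3 133% and 12.6%. Over the 7 genes of 65A in the UO table the medians were 133% and 15.8%, with 6 of 7 above the pulse at the 1-hour chase and 0 at the 3-hour chase, against 66.9% and 20.4% for all 8324 genes, of which 17% and 0.541% were above it. The 2 UO sources thus disagreed on the 1-hour chase of these genes and both had them far below the pulse at the 3-hour chase. Of the 18 cuticle genes with values in both UO sources, 9 were below the pulse at the 1-hour chase in the scanner signals and above it in the table. In the U + actD table the 65A medians were 414% and 236% for 6 genes, with 5 and 5 of 6 above the pulse, against 63.2% and 17.6% for all genes, of which 12.6% and 2.9% were above it. The exception was Lcp65Ad, at 44.6% and 6.58%. Between the 1-hour and the 3-hour chase, a step that leaves out the pulse arrays, the 65A median changed by -2.67 (log2) in the UO scanner signals, -3.27 in the UO table and -0.55 in U + actD, against -2.52, -1.76 and -1.36 for all genes.

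**Figure D2:**
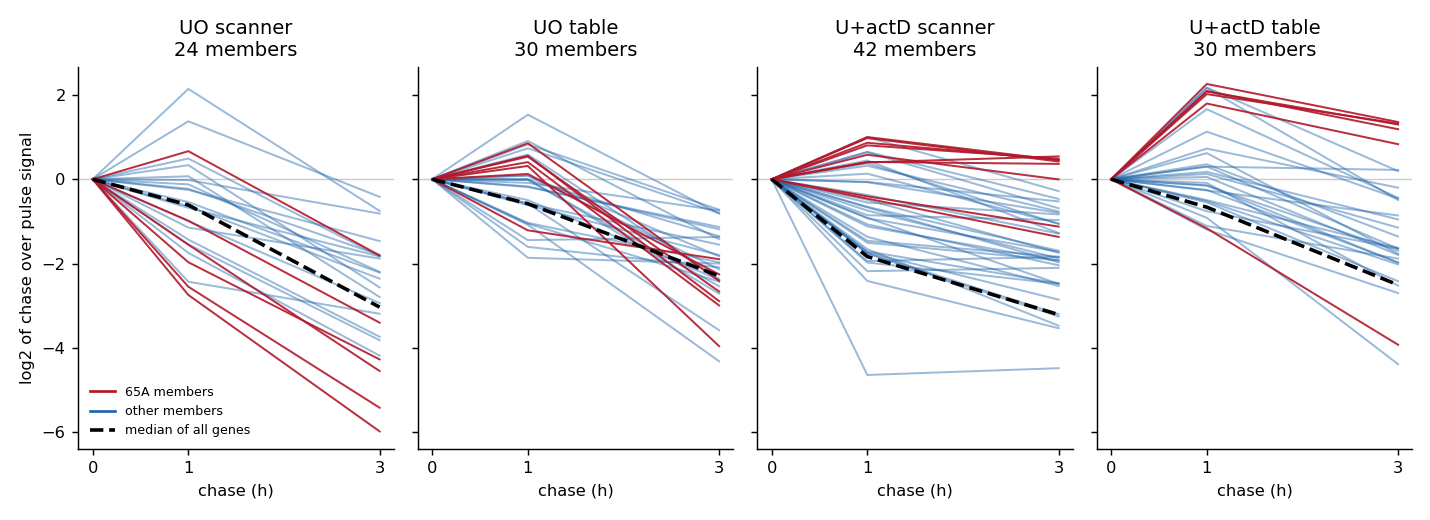
Log2 of the chase over the pulse signal against hours of chase, 1 line per cuticle gene measured in that source, with 65A genes in red, other members in blue and the median of all genes dashed. In the UO scanner panel 5 of 6 red lines lie below the dashed line at the 1-hour and the 3-hour chase, in the UO table panel 6 of 7 lie above it at the 1-hour chase and 2 of 7 at the 3-hour chase, and in U + actD 9 of 9 (scanner) and 5 of 6 (table) lie above it at each chase.

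Outside 65A, Cpr65Eb and Cpr66D stood highest against their pulse in the UO scanner signals at the 3-hour chase, at 59.4% and 74.8%. Cpr65Eb, next to Cpr65Ea at 65E, read 83, 366 and 49.3 in UO, and 751, 473 and 192 in U + actD. Cpr66D read 62, 161 and 46.4 in UO and 902, 539 and 246 in U + actD. In both genes the UO 1-hour chase lay above the pulse, at 441% and 259%, from a pulse signal near the threshold, while in U + actD both chases lay below the pulse. The UO table did not give this for Cpr65Eb, which stood at 48.2% and 18.6% there, and put Cpr66D at 107% and 22.8%. Cpr65Ea, measured in U + actD alone, had a probe with 10 spots per array. Its net signal was 443 ± 117 at the pulse, 1217 ± 257 at the 1-hour chase and 456 ± 92.7 at the 3-hour chase (SD, n = 10 spots of 1 array). That probe stood at 227% and 102% of its pulse on the spike-in scale, but at 448% and 71.1% in the U + actD table. In the UO table it stood at 166% and 57.3%. The other Cpr65Ea probe read 418, 733 and 277 in U + actD after scaling.

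At 47E, a pair of Cpr47Eg probes read 938, 292 and 55.0 and 857, 244 and 44.3 in UO and 12656, 4982 and 2208 and 8025, 3767 and 2032 in U + actD. Both probes were lower at each step in each series in these signals, reaching 5.87% and 5.17% of the pulse in UO and 17.4% and 25.3% in U + actD. The authors' table did not give this order for the second probe. It stood at 150% and 19.4% in UO there, and at 109% and 45.1% in U + actD. Another Cpr47Eg probe, measured in U + actD alone, read 511, 299 and 166, or 32.6% at the 3-hour chase. Cpr47Ef read 59, 82.9 and 16.6 in UO and 1221, 387 and 110 in U + actD, through a probe with that name only in the UO files. Cpr47Ec was measured in UO alone, with 66, 29.8 and 17.9.

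At 49A, Cpr49Ac read 106, 68.0 and 20.7 in UO and 2114, 629 and 230 in U + actD. Cpr49Ag read 144, 98.6 and 30.9 in UO and 4789, 1716 and 1480 in U + actD, where its second probe read 4929, 1705 and 1112. Both Cpr49Ag probes thus changed more in the first hour of the U + actD chase than in the hours after it. So did the median gene, at 28.05% and 10.8% of its pulse. On the authors' scale Cpr49Ag changed less in the first hour (log2 -0.27) than in the hours after it (-0.59). Cpr49Ab, in U + actD alone, read 419, 109 and 117, with both chase values near the threshold.

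Among members outside these runs, Cpr57A read 300.5, 103 and 21.3 in UO and 6510, 1916 and 683 in U + actD, Cpr78E read 620, 230 and 46.6 and 4908, 1912 and 698 on the probe detected in both series, and Cpr64Ad read 294, 308 and 42.3 and 6262, 2430 and 1083. Their U + actD values at the 3-hour chase, 10.5%, 14.2% and 17.3% of the pulse, lay near the 10.8% of the median gene. A second Cpr78E probe, measured in U + actD alone, read 684, 372 and 331, or 48.4% at the 3-hour chase. Cpr51A had probes that read 197, 316 and 38.1 and 161, 160 and 23.8 in UO, and 1575, 1698 and 791 and 1942, 2806 and 1338 in U + actD. Cpr31A was lower against its pulse in UO, with 153, 28.4 and 16.8 in UO and 742, 710 and 516 in U + actD. Cpr11A went the other way, with 114, 104 and 24.7 in UO and 3814, 717 and 329 in U + actD. Cpr56F read 64.5, 55.1 and 18.6 in UO and 374, 485 and 179 in U + actD.

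At 84A, a probe of Ccp84Ad was saturated at the U + actD pulse (100% of pixels) and 1-hour chase (92%). Its loss between the pulse and the 3-hour chase was therefore at least 2.77-fold, and in UO it read 1495, 1475 and 851. This probe had the name only in the UO files, and a second probe of Ccp84Ad, with 577, 427 and 267 in U + actD, had an isolated net signal of 9681 on the UO pulse array against 112 and -12 at the chases. Ccp84Ae read 58.5, 36.5 and 16.4 in UO. Edg84A, an ecdysone-dependent cuticle gene, read 410, 149 and 115 in U + actD and Edg91 read 596, 378 and 184.

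The other genes measured in U + actD stood at 13.8% to 72.3% of the pulse at the 3-hour chase, save Cpr60D. They were Cpr11B, Cpr30F, Cpr50Cb, Cpr62Bc, Cpr64Ab, Cpr66Cb, Cpr67B, Cpr67Fa1, Cpr67Fb, Cpr76Ba, Cpr76Bc, Cpr78Cb, Cpr78Cc and Cpr97Eb. Cpr62Bc (864, 1356 and 625), Cpr64Ab (511, 795 and 317), Cpr67B (1248, 1700 and 516) and Cpr50Cb (497, 544 and 240) were above the pulse at the 1-hour chase. The probes of Cpr60D disagreed, at 23029, 108 and 129 and at 364, 124 and 131, so the first probe's pulse signal stood alone. Cpr67Fb (147, 73.9 and 19.2) was measured in UO through another probe, and Cpr97Ea (54, 45.3 and 19.5) in UO alone. Neither of these probes was above the threshold on all U + actD arrays.

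The 6 arrays were then fitted together with limma, with time point and series in the model. The disagreement between the series gave the error, which on the spike-in scale was pooled over all genes. At the 3-hour chase 17 of the 20 members fell on the spike-in scale (adjusted p under 0.05 in limma), against 99.1% of the 7378 genes tested. The exceptions were Ccp84Ad (-1.14 ± 0.71, log2 ± SE, adjusted p = 0.11), Cpr66D (-1.15 ± 0.71, 0.11) and Cpr65Eb (-1.36 ± 0.71, 0.055), all in limma with Benjamini-Hochberg adjustment. The Ccp84Ad estimate comes from the probe that was saturated in U + actD, so its fall there is only bounded. The 17 include Cpr65Ax1, Lcp65Af, Lcp65Ag1, Lcp65Ag2 and Lcp65Ag3, which stood above their pulse in U + actD. Their estimates average a fall in UO with a rise in U + actD, so they do not show a fall in both series. The member median was -2.00 and that of all genes -3.17. In this fit every gene had the same SE, so the order of the genes is that of their changes. A gene's own gap between the series did not enter its p-value here. At the 1-hour chase limma called 0 members and 0.0271% of all genes, at an unadjusted p under 0.05 it called 3 members and 27.8% of genes, and the medians were -0.62 and -1.20.

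The spike-in scale moves all genes together, so each chase array was also shifted to put its median gene at 0. On this relative scale 17 of the 20 members that passed lay above 0 at the 3-hour chase, with a median of 1.20 and a range of -0.33 to 2.06, against a median of 0.03 for all genes (quartiles -0.26 and 0.36). The filter raises this count and median, as above: Cpr56F, Cpr66D and Cpr65Eb could pass in UO only at 25.2%, 26.3% and 19.6% of the pulse or more, and Cpr47Ef, which stood at 28.1%, only at 27.6%. No member passed the adjusted threshold in limma, where 0% of all genes did: the lowest adjusted p was 0.96 among members and 0.83 among all genes. At an unadjusted p under 0.05, 7 members were higher against 4.01% of genes and 0 were lower against 0.84%. Those 7 were Ccp84Ad (2.06 ± 0.43, with the saturated probe), Cpr66D (2.05 ± 0.41), Cpr65Eb (1.84 ± 0.46), Cpr56F (1.77 ± 0.51), Cpr65Ay (1.74 ± 0.39), Cpr51A (1.54 ± 0.54) and Cpr49Ag (1.25 ± 0.37), and each lay above the median gene in both series. The values of Ccp84Ad and Cpr65Ay come from probes with these names only in the UO files. Around 0 were Cpr47Eg (-0.02 ± 0.59), Cpr78E (-0.07 ± 0.45) and Cpr57A (-0.33 ± 0.40), and Cpr11A (0.34 ± 0.41), Cpr49Ac (0.42 ± 0.36), Cpr64Ad (0.54 ± 0.36) and Cpr47Ef (0.55 ± 0.43) lay slightly above it.

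Of the 6 genes of 65A, 5 had the widest errors among the members, since the error is the gap between the series. Cpr65Ax1 had an estimate of 0.45 ± 1.47, from -2.93 in UO and 3.84 in U + actD. Lcp65Ag3 had 0.70 ± 1.37, Lcp65Ag2 1.15 ± 1.17, Lcp65Ag1 1.30 ± 1.15 and Lcp65Af 1.77 ± 0.94, and Cpr31A, outside the run, had 1.34 ± 0.86. At the 1-hour chase the relative median of the members was 0.62 against 0.04, with 15 of 20 above 0, 0 called by limma against 0% of all genes, and 6 higher at an unadjusted p under 0.05 against 1.83% and 0 lower against 0.176%. The authors' table gave values for another set of 20 members. It had Cpr50Cb, Cpr65Ea, Cpr66Cb, Cpr67B, Cpr67Fb, Edg91, Lcp65Ac and Lcp65Ad, which the main fit lacked. It lacked Ccp84Ad, Cpr31A, Cpr47Ef, Cpr49Ac, Cpr51A, Cpr56F, Cpr65Ay and Lcp65Af. Of its 20 members, 17 lay above 0 at the 3-hour chase (median 0.85). Limma called 1 of them higher, Cpr50Cb (1.83 ± 0.29, adjusted p = 0.049), against 1.39% of genes, and 0 lower, against 0.164%. On the authors' own scale 13 of these 20 members fell, against 94.7% of genes, and 0 rose, against 0.0506%.

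**Figure D3:**
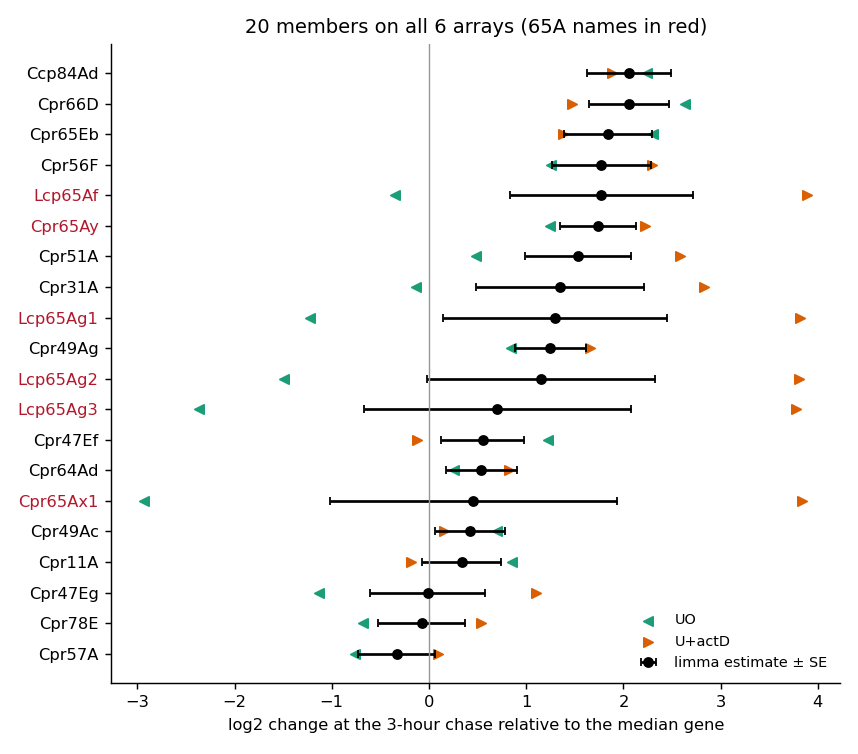
Change at the 3-hour chase relative to the median gene (log2) for the 20 members above the threshold on all 6 arrays, with the limma estimate ± SE in black and the value in each series as a triangle (1 array each). Of the 65A genes, named in red, 5 have the widest gaps between the series, with UO below 0 and U + actD above 3, and Cpr65Ay, at 1.25 and 2.23, does not.

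Chases with and without actinomycin D were compared by the difference in slope per hour of chase, after giving both series the same trimmed mean ratio. Each series has 1 array a time point, so the error of this fit is the departure from a straight line alone and no error between collections enters it. The calls compare these arrays, not the conditions, and their p-values are too small. Of the 20 members, 14 lost signal more slowly in U + actD, with a median of 0.27 log2 per hour against -0.02 for all genes. The largest were Cpr65Ax1 (2.04 ± 0.47 log2 per hour), Lcp65Ag3 (1.82 ± 0.51), Lcp65Ag2 (1.59 ± 0.39), Lcp65Ag1 (1.47 ± 0.45) and Lcp65Af (1.29 ± 0.27). With 1 residual degree of freedom no member passed in limma, where 0% of genes did (lowest adjusted p 0.13 among members and among all genes). At an unadjusted p under 0.05, 7 members were slower against 13.4% of genes and 1 was steeper, Cpr47Ef, against 14%. In the authors' table the same model called 0 of its own 20 members steeper in U + actD, against 0.873% of 7908 genes. It called 5 slower, against 1.88%. They were Lcp65Ag2 (1.76 log2 per hour), Lcp65Ag3 (1.47), Lcp65Ag1 (1.43), Cpr65Ax1 (1.36) and Lcp65Ac (1.14), with the same SE of 0.27 for every gene. All 5 belong to 65A. The call therefore depended on the source, although the sign did not for the 4 of these genes with values in both. The UO table with U + actD scanner signals gave 6 of 23 slower (1.87% of genes) and 0 steeper (0.191%), and normexp background correction 6 of 20 slower (11.2%) and 0 steeper (9.46%). Where dim values were set to the threshold, 6 of 57 were slower (2.8%) and 1 steeper (1.47%), and with no filter 6 of 97 were slower (2.45%) and 1 steeper (1.61%).

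**Figure D4:**
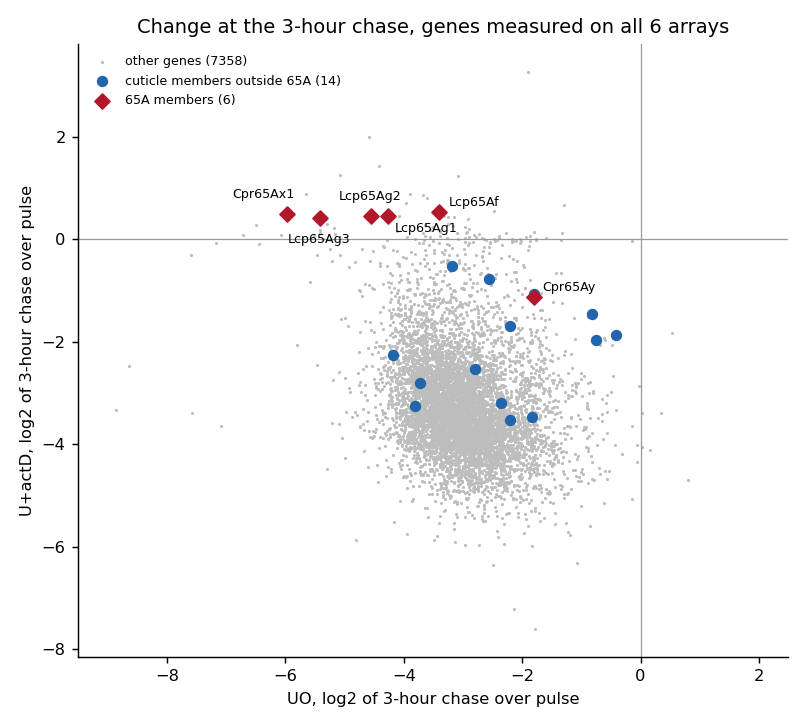
Log2 change at the 3-hour chase in UO (horizontal) and U + actD (vertical) for the 7378 genes above the threshold on all 6 arrays, 1 array per value, with the 14 members outside 65A as blue circles and the 6 within it as red diamonds. Lcp65Ag1, Lcp65Ag2, Lcp65Ag3, Lcp65Af and Cpr65Ax1 lie above 0 on the vertical axis and left of -3 on the horizontal axis, and Cpr65Ay lies among the other members.

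A half-life was calculated per probe and series from the least squares slope of the natural log signal, and was accepted at an adjusted R2 of at least 0.75. In UO 22 of 28 member probes fitted, with a median half-life of 56.1 min (range 30.9 to 207), against 55.1 min for all probes, 81.9% of which fitted. The 7 fitted 65A probes lay between 30.9 and 52.4 min (median 38.1) and the 15 others between 42.9 and 207 min (median 75.3). In U + actD 21 of 53 member probes fitted, with a median of 97.3 min (range 53.5 to 328), against 52.5 min for all probes, 71.8% of which fitted. Of the 11 U + actD probes of 65A, 8 had no decay over the chase and 2 fitted, those of Lcp65Ab2 (132 min) and Cpr65Ay (161 min). The probes fitted in both series numbered 7. Cpr47Eg had 42.9 and 44.7 min in UO against 95.3 and 74.7 min in U + actD, Cpr57A 47.9 against 57.9, Cpr78E 48.7 against 66.1 and Cpr64Ad 59.8 against 74.4, while Cpr49Ac had 75.3 against 59.0 and the Ccp84Ad probe, saturated in U + actD, 207 against 120. In the authors' table the medians were 97.7 min in UO and 87.6 min in U + actD (14 of 30 probes fitted in each). The order of the series thus depended on the source, and with 1 array a time point no half-life has an error between collections.

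**Figure D5:**
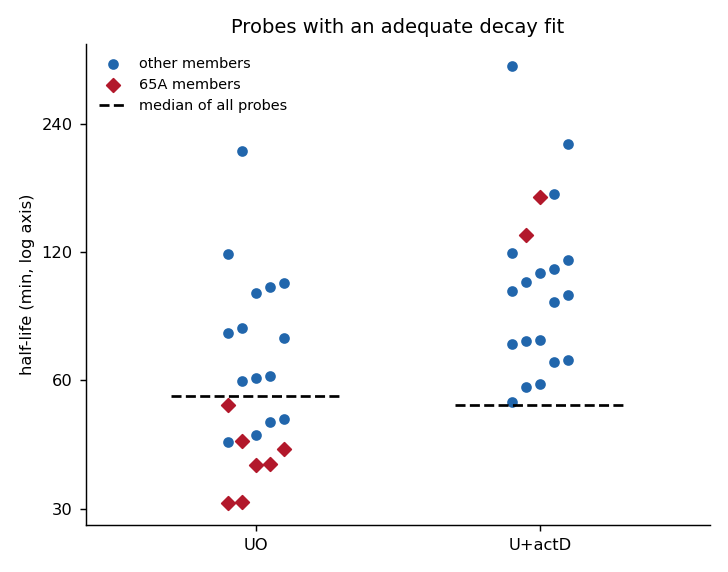
Half-lives (min, log axis) of the member probes with an adequate fit, 22 in UO and 21 in U + actD, with 65A probes as red diamonds and the median of all probes dashed (55.1 and 52.5 min). The UO diamonds lie below that median, and the U + actD points lie above it, with 8 further 65A probes not drawn because they had no decay.

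Related genes were read from lists of the pathways around the cuticle. At the 3-hour chase 4 of 11 genes for tanning and hardening, 13 of 14 regulators and 23 of 26 chitin and matrix organisers were above the threshold on all arrays, and all of these fell on the spike-in scale in limma, against 99.1% of genes. Their median changes were -2.79, -3.07 and -3.22, against -2.00 for the cuticle members and -3.17 for all genes. On the relative scale their medians were 0.41, 0.13 and -0.01, and limma called 0 of them, as 0% of all genes. Among regulators, the nuclear receptor gene EcR changed by -3.78 ± 0.71 and the epidermal factor gene grh by -2.99 ± 0.71 (adjusted p under 0.05 in limma). Of the matrix genes, kkv, the chitin synthase, changed by -2.95 ± 0.71 and Gasp, a chitin-binding protein of the trachea, by -2.50 ± 0.71. Slope differences in these lists had medians of -0.29, -0.21 and -0.41 log2 per hour, on the other side of 0 from the cuticle members, with 0 called. Marker lists had relative medians of 0.04 for epidermis (7 genes), -0.14 for trachea (6), 0.33 for nervous system (5), -0.49 for gut (3), 0.60 for muscle (8) and 0.88 for fat body and hemocytes (5), against 1.20 for the cuticle members that passed. The part of these cell types in the members' values was not tested.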

How the data were processed

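TU-RNA of 6 whole-embryo samples was hybridised to 6 Agilent 4x44K arrays. Per the file headers, the deposited scanner files hold mean foreground and local background intensity of 45220 spots. The deposited files also give the percent of saturated pixels per spot. The authors rescaled the intensity values of their table before deposit; for U + actD they equalled the scanner signals times 1, 1.92 and 1.7664 at 100% of 17331 spots, whereas UO values differed. The series matrix repeated that table. The scanning software and its version were not given in the sources used here.

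Net signal was foreground minus local background, averaged over spots of a probe. Local background was 0 at 46.0% to 54.7% of UO spots. Probes were named from the table, the platform annotation and the UO files (21776 of 32162 had a gene). The 4 probes with a cuticle name only in the UO files were read as Ccp84Ad, Cpr47Ef, Cpr57A and Cpr65Ay. The authors' table names them TC209607, BT022850, Obp57d and EL885901, in that order. Which name is right was not tested, and the Obp57d probe gave no decay value. Arrays were scaled within a series on 5 spike-ins in UO and 4 in U + actD, with chase factors of 0.408 and 0.326 in UO and 0.827 and 0.991 in U + actD. Log2 values of probes above the threshold were averaged per gene. Precision is set by having 1 array a group.

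The limma package 3.58.1 in R 4.3.3 (lmFit, then eBayes) tested changes, two-sided, with Benjamini-Hochberg adjustment over 7378 genes, time point and series as factors and 2 residual degrees of freedom (1 for the slope difference). The series stand in for replicates, although they differ in treatment. On simulated data of 7378 genes for the relative change at the 3-hour chase, 0% of genes changed by 2 log2 were called and 95% of those changed by 4 log2, with 0 and 2 false calls, and all had the right sign. Python 3.11.15, pandas 2.3.3 and numpy 2.4.6 were used.

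Members above the threshold on all 3 arrays of a series could be named, some by a shared range only. Those on all 6 arrays were named in the tests, and dim ones without values, save Lcp65Ad and single probes shown beside a measured gene. Other lists' genes were named only past the threshold. Members and lists were chosen with earlier results of these data known. Alternatives covered the source, filter, background, scaling, saturation, block and arrays left out.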

Additional observations from a re-analysis of the deposited data

Results flagged for a closer look

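Of the 21 cuticle genes measured in both series, 5 stood on opposite sides of their pulse at the 3-hour chase, which a reader may want to look at again. Each comes from 1 array a group, and the opposite directions themselves were not tested on these values. Cpr65Ax1 was at 0.49 (log2) in U + actD and -5.98 in UO, Lcp65Af at 0.54 and -3.40, Lcp65Ag1 at 0.46 and -4.27, Lcp65Ag2 at 0.45 and -4.55, and Lcp65Ag3 at 0.42 and -5.42. All 5 lie in the 65A run, and because several are near-identical copies they do not count as 5 separate measurements. In the UO table the same genes had values between -2.26 and -3.96 at the 3-hour chase, on the same side of the pulse. On the authors' scale of the U + actD values, 4 of them stood at 1.32, 1.30, 1.19 and 1.36 in the order Cpr65Ax1, Lcp65Ag1, Lcp65Ag2 and Lcp65Ag3.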

How the results depend on the processing

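No paired analysis was possible because the labels carry no replicate numbers to pair arrays by; the series was a block in the test of each chase. Member counts in this section stand without the share of all genes under each alternative. They show how a call depends on the processing and not whether members differ from other genes. In the main fit 99.1% of all genes fell at the 3-hour chase on the spike-in scale. The 17 members lower at the 3-hour chase became 51 of 57 with the filter at 1 time point and 84 of 97 with no filter, dim values being set to the threshold, since more members are then tested. It was 0 of 20 without the series block and 0 of 20 with 75th percentile scaling, which takes out the common fall (median of all genes 0.09), and 7 to 17 with an array left out: 7 without the UO 3-hour chase and 10 without the UO pulse. With that scaling the changes of 18 genes turned positive: Ccp84Ad 2.12, Cpr11A 0.40, Cpr31A 1.41, Cpr47Ef 0.61, Cpr47Eg 0.046, Cpr49Ac 0.48, Cpr49Ag 1.31, Cpr51A 1.598, Cpr56F 1.83, Cpr64Ad 0.60, Cpr65Ax1 0.52, Cpr65Ay 1.80, Cpr65Eb 1.90, Cpr66D 2.12, Lcp65Af 1.83, Lcp65Ag1 1.36, Lcp65Ag2 1.21 and Lcp65Ag3 0.76. With an array left out Lcp65Af ranged from -3.06 to 0.20, the latter without the UO 3-hour chase.

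At the 1-hour chase the count of 0 became 1 with the UO table and U + actD scanner signals (Cpr11A), 1 with the filter at 1 time point (Cpr60D) and 0 to 1 with an array left out (Cpr65Ax1 without the U + actD pulse). The relative count of 0 at the 3-hour chase became 1 (Cpr50Cb) in the authors' table and 1 (Cpr50Cb) with the UO table and U + actD scanner signals. Cpr50Cb was not among the members tested in the main fit. The relative count was 0 to 10 with an array left out, the 10 without the UO pulse. At the 1-hour chase it was 0 to 7, the 7 also without the UO pulse. Without the U + actD pulse, Cpr65Eb and Cpr66D were higher and Cpr65Ax1 lower at both chases, and Lcp65Ag3 lower at the 1-hour chase. The relative median of the members kept its sign in all alternatives run, at 0.48 to 1.79 for the 3-hour chase and 0.04 to 1.29 for the 1-hour chase with an array left out.

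The slope difference, 0 members in the main test, was called for 5 in the authors' table, 6 with the UO table and U + actD scanner signals, 7 with the filter at 1 time point, 7 with no filter and 6 with normexp, and 5, 6, 6, 6 and 5 of these lay in 65A. It was 0 with foreground alone, without saturated genes and, an alternative chosen after seeing the data, with a local background of 0 replaced by the array's median. The members' median half-life of 56.1 min in UO was 97.7 in the authors' table and 96.5 with normexp. It was 108 with 75th percentile scaling (1 probe fitted, and none in U + actD). With a local background of 0 replaced it was shorter, at 38.8 min (18 of 26 probes fitted), against 49.98 for all probes. The members thus lay below all probes there, and above them in the table (72.02) and with normexp (87.41). Of the 28 UO member probes, 16 had a background of 0 on some but not all UO arrays. The members' median of 97.3 min in U + actD was 145 with foreground alone and 132 over all probes regardless of the fit. At 2 times the threshold 10 and 19 genes were detected in UO and U + actD, and at the 99th percentile of the negative controls 14 in U + actD. Causes other than those named were not tested.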
